A study of Mus musculus with 12 samples.

Results

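Readers of N6-methyladenosine (m6A) that lack a YTH domain were followed in WT and *Alkbh5* knockout (KO) mouse oocytes. The set was fixed by name, from proteins reported to read m6A, and held 9 of the 56691 genes of the count table, namely *Igf2bp1*, *Igf2bp2*, *Igf2bp3*, *Elavl1*, *Hnrnpa2b1*, *Hnrnpc*, *Fmr1*, *Fxr1* and *Fxr2*. All 9 were matched by symbol. RNA had been sequenced in 12 libraries, 2 for each combination of genotype (WT or KO) and stage. The stages were germinal vesicle (GV, arrested in meiotic prophase), germinal vesicle breakdown (GVBD, resumption of meiosis) and metaphase II (MII, the arrest before fertilization). KO was a total knockout, made by removing the first exon of *Alkbh5*, which encodes an RNA demethylase, so every cell type of the female lacked the enzyme. Both genotypes were on the C57BL/6 background, and denuded oocytes came from females primed with gonadotropin at about 3 weeks of age and were cultured. Oocytes were sampled by time in culture. The study reports that most KO oocytes in culture were arrested at GV and that few extruded the first polar body. Whether oocytes were chosen by stage when collected for sequencing is not stated. KO libraries of GVBD and MII may therefore consist largely of oocytes of earlier stages, and stage cannot be told apart from genotype there. The number of oocytes in a tube differs between the methods and a figure legend, and an unequal number of oocytes cannot be told apart from an unequal amount of RNA in each oocyte. Nothing in the labels ties a library to an animal, so p-values measure the spread between pools.

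In outline, 8 of the 9 transcripts were well measured and *Igf2bp1* was close to 0 counts in every library. On the spike-in scale and with all libraries entered, none of the 8 had both an adjusted p under 0.05 and a 2-fold change in any comparison. For *Igf2bp3* the KO group means were 1.71 to 1.89 times those of WT at the 3 stages. By edgeR, in the fits as reported, these differences did not pass after adjustment, and they moved with single libraries at GVBD and MII. Over all stages, some edgeR refits of *Igf2bp3* given below had an adjusted p under 0.05, with changes under 2-fold. By DESeq2 the adjusted p of *Igf2bp3* was 0.00389 at GV and 0.0269 over all stages, with changes under 2-fold. From GV to MII, spike-in scaled counts of the 8 transcripts had median log2 changes of −0.24 in WT and −0.39 in KO, beside −1.06 and −1.17 for all genes tested.

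Fully grown oocytes are largely silent in transcription, so a stage change in mRNA reflects stored transcripts. IGF2BP proteins bind RNA through RNA recognition motifs and KH domains and are known for stabilizing m6A-bearing mRNAs. ELAVL1 (HuR) binds AU-rich elements and likewise protects transcripts, HNRNPC and HNRNPA2B1 are nuclear proteins of pre-mRNA processing, and FMRP (the *Fmr1* product) with its relatives FXR1 and FXR2 binds mRNAs on polysomes and regulates their translation. Expansions in human *FMR1* are a known cause of early ovarian insufficiency.

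Library totals ran from 28557742 to 40247810 counts, of which 221927 to 838409 fell on ERCC spike-in sequences, and 19837 to 24436 genes had at least 1 count. *Alkbh5* itself had log2 fold changes of −5.41, −6.43 and −5.89 in KO at GV, GVBD and MII by edgeR (adjusted p = 0.046, 1.26e-05 and 3.6e-06). All 12 oocyte markers were present in every library. Of 13 granulosa and cumulus markers, *Amhr2* had 0 counts throughout, *Amh* and *Foxl2* were detected in 1 and 2 libraries, and the list summed to 30.4 to 77.6 CPM, counts scaled to a common library total. The summed level of 10 blood cell markers, mainly globins, differed far more between libraries. For WT it was 43.9 to 5584 CPM in GV pools, 3060 to 3407 in GVBD pools and 31.1 to 60.8 in MII pools. For KO the GV pools had 3152 to 5373 CPM, the GVBD pools 11.6 to 24.0 and the MII pools 10.3 to 926.9. Between genotypes, edgeR and DESeq2 each called 10 of 10 in KO at GVBD, where they were lower, and at MII edgeR called 5 of 8 higher in KO and DESeq2 called 0. The part of blood RNA in the results below was not tested.

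How far reads of the 3 *Igf2bp* genes can be told apart bears on every value given for them. Their longest coding sequences, taken from GENCODE M21, were 68.2% to 68.9% identical in pairs. The longest stretch without a mismatch in any pair was 20 bases, shared by *Igf2bp1* and *Igf2bp2* (and equalled in length by *Igf2bp1* with *Igf2bp3* elsewhere). It lies in the first exon of each gene, in the part encoding the first RNA recognition motif, and is shown because it is the place where the first pair is hardest to separate. The aligned bases follow, 5′ to 3′ along the transcript, with capitals marking the 3 bases of *Igf2bp3* that differ from the other genes.
Igf2bp1 (GRCm38 chr11:96005506-96005525, minus strand): tccggctacgccttcgtgga
Igf2bp2 (GRCm38 chr16:22162833-22162852, minus strand): tccggctacgccttcgtgga
Igf2bp3 (GRCm38 chr6:49214344-49214363, minus strand): AcGggctacgcGttcgtgga

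Among the other families, coding sequences were 58.5% to 66.3% identical among *Fmr1*, *Fxr1* and *Fxr2*, 71.6% between *Elavl1* and *Elavl2*, 67.2% and 69.5% between *Hnrnpa2b1* and *Hnrnpa1* or *Hnrnpa3*, and 57.9% between *Hnrnpc* and *Raly*. Pseudogene copies with sizeable counts were found for *Hnrnpc* alone. Annotated pseudogenes with at least 90% identity over at least 150 bases numbered 3 for *Hnrnpc*, 1 each for *Hnrnpa2b1* and *Fxr1*, and 0 for the other members. The *Hnrnpc* copies together received 5.82% as many counts as *Hnrnpc*, and the copies of the other genes at most 0.07%. Only uniquely mapped reads were kept, so reads that fit a gene and its copy equally were lost from both. These shares therefore do not bound the loss for *Hnrnpc*, *Hnrnpa2b1* or *Fxr1*. On the opposite strand, 1529 exon bases of *Igf2bp3* overlap *Malsu1*, which received 18 to 519 counts in WT and 33 to 484 in KO libraries. Whether the counting used strand is not stated, and shared reads could not be told apart.

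Levels were compared between genes as CPM of endogenous reads per kilobase of exon (CPM per kb). *Hnrnpc* (GRCm38 chromosome 14, 52073377 to 52104028) was the most abundant, with a median of 156.4 over the 12 libraries (range 133.9 to 201.2). *Fxr1* (chromosome 3, 34019943 to 34070322) followed at 59.1 (42.5 to 101.6). These were higher than 98.4% and 96.5% of the 31485 genes with a count and an annotated length. *Igf2bp2* (chromosome 16, 22059009 to 22163299) had a median of 12.4 (9.11 to 23.1), *Hnrnpa2b1* (chromosome 6, 51460932 to 51469894) of 9.30 (8.06 to 17.8) and *Igf2bp3* (chromosome 6, 49085223 to 49214957) of 7.28 (3.72 to 11.7). Lower still were *Elavl1* (chromosome 8, 4285382 to 4325413) at 2.24 (0.841 to 2.57), *Fxr2* (chromosome 11, 69632990 to 69653297) at 1.66 (0.862 to 3.97) and *Fmr1* (chromosome X, 68678541 to 68717963) at 1.01 (0.526 to 1.3). The order of medians was the same when the longest transcript replaced the exon union. With that length, however, *Hnrnpa2b1* exceeded *Igf2bp2* in some libraries (15.6 beside 13.9 in WT GV replicate 1). In others it was lower (19.1 beside 34.5 in KO MII replicate 1). *Fxr2* and *Fmr1* had close medians with that length, 2.12 and 2.06. *Fmr1* exceeded *Fxr2* in some libraries (2.64 beside 1.69 in WT GVBD replicate 1) and was lower in others (2.09 beside 5.06 in KO GVBD replicate 1). With the exon union, most neighbours in the order kept it in all 12 libraries. The exceptions were *Hnrnpa2b1* over *Igf2bp3*, which held in 10 libraries, and *Elavl1* over *Fxr2*, which held in 7, so that the last pair did not differ beyond the spread.

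**Figure D1:**
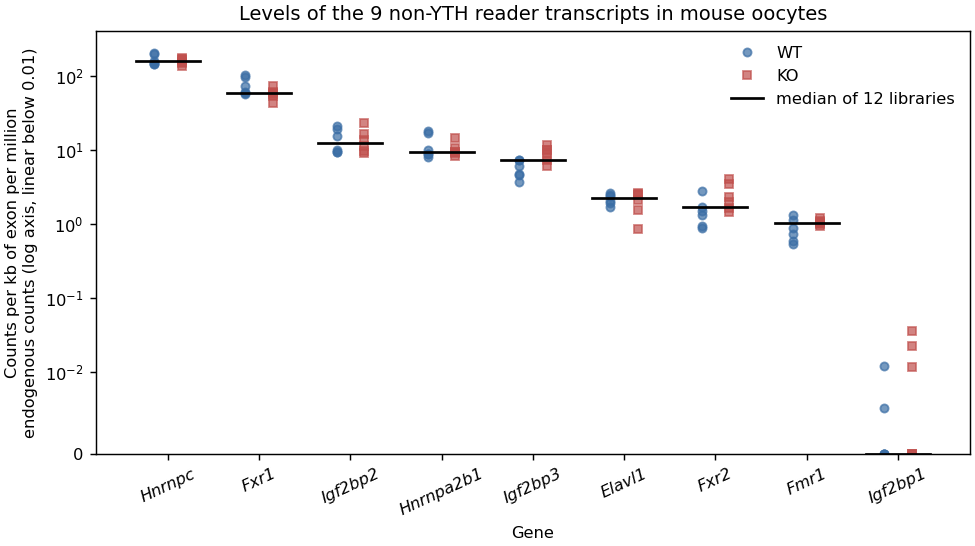
Level of each of the 9 transcripts as CPM per kb of exon (log axis, linear below 0.01), with 1 point for each of the 12 libraries (circles WT, squares KO) and a line at the median. *Hnrnpc* is highest at 156.4 and *Igf2bp1* lies at 0 in most libraries.

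*Igf2bp1* (chromosome 11, 95957163 to 96005940, minus strand) was at the limit of detection. WT libraries had 0 and 0 counts in the GV pools, 0 and 4 in the GVBD pools, and 2 and 0 in the MII pools. KO libraries had 6 and 0, then 0 and 4, then 12 and 0, in the same order. In no group were both libraries above 0, and with 28 counts in all the gene did not pass the filter on low counts. It entered some refits, among them those without a filter, and was called in none of these. A count of 0 allows up to 3 counts, which corresponds to a level of 0.00786 to 0.0109 CPM per kb in these libraries. Such limits cover the counting error of reads only, and PCR reads without molecular identifiers are not independent molecules.

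*Igf2bp2*, the IGF2BP paralog with the highest median level in these oocytes, showed no steady difference between genotypes. Counts scaled to the summed spike-in (the library's ERCC counts relative to the mean of the 12) were 2914 and 2971 in WT GV and 5125 and 3160 in KO GV. The GVBD pools had 5204 and 2082 for WT beside 3295 and 3354 for KO. The MII pools had 4532 and 2653 for WT beside 6074 and 2675 for KO. KO lay above WT at GV, whereas at GVBD and MII the genotypes overlapped, and the WT GVBD replicates differed 2.50-fold from each other.

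*Igf2bp3*, the paralog with the next highest median level, had higher group means in KO at each stage. Spike-in scaled counts were 1588 and 1211 in WT GV and 2543 and 2651 in KO GV. The GVBD pools had 2732 and 1167 for WT beside 3470 and 3208 for KO. The MII pools had 1773 and 944 for WT beside 3380 and 1761 for KO. Both KO libraries exceeded both WT libraries at GV and GVBD. At MII the lower KO library was just under the higher WT library. The ratio of KO to WT group means was 1.86 at GV, 1.71 at GVBD and 1.89 at MII.

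For *Elavl1*, WT had 736 and 793 spike-in scaled counts in the GV pools, 1207 and 645 in the GVBD pools and 727 and 480 in the MII pools. KO had 450 and 713, then 1288 and 1060, then 778 and 564, in the same order of stages. KO lay under WT at GV, and the genotypes overlapped at the later stages.

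For *Hnrnpc*, which encodes a protein that packages nascent nuclear transcripts, WT had 26543 and 25973 scaled counts in the GV pools, 28023 and 20736 in the GVBD pools and 25746 and 16130 in the MII pools. KO had 37018 and 31383, then 28288 and 25271, then 26885 and 14805. The genotypes parted at GV, where KO was higher, and overlapped afterwards. *Hnrnpa2b1*, a relative that also acts in microRNA processing, ranged from 1766 (WT GVBD) to 3262 (WT MII) with a median of 2446 over the 12 libraries. It had 2416 and 2585 in WT GV against 3130 and 2780 in KO GV.

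The FMRP family was dominated by *Fxr1*. For this gene, WT had 15567 and 19331 scaled counts in the GV pools, 17468 and 11854 in the GVBD pools, and 19707 and 11887 in the MII pools. KO had 19477 and 15652, then 13618 and 14705, then 16737 and 8645. The genotypes overlapped at each stage. Per kilobase, its level was 41.4 to 131.3 times that of *Fmr1* and 10.7 to 102.0 times that of *Fxr2*. For *Fmr1*, WT had 223 and 403 scaled counts, then 528 and 143, then 229 and 124, and KO had 544 and 401, then 451 and 333, then 341 and 209. For *Fxr2*, WT had 138 and 412, then 227 and 191, then 164 and 67, and KO had 377 and 385, then 730 and 247, then 459 and 118. KO exceeded WT in both GVBD pools for *Fxr2*, and the genotypes otherwise overlapped for both genes. These lower genes carried the widest replicate spread, up to 3.68-fold for *Fmr1* (WT GVBD) and 3.89-fold for *Fxr2* (KO MII).

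Separation of 2 libraries from 2 was common among all genes. Of 13273 genes with a mean of 50 counts or more, the genotypes did not overlap for 58.2% at GV, 48.2% at GVBD and 30.7% at MII. Among the 8 readers this was so for 5 at GV, where *Igf2bp2*, *Igf2bp3*, *Hnrnpa2b1* and *Hnrnpc* were higher in KO and *Elavl1* lower. It was so for 2 at GVBD, *Igf2bp3* and *Fxr2*, both higher in KO, and for 0 at MII. The share among the readers was thus close to that of all genes at GV and under it at the later stages.

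**Figure D2:**
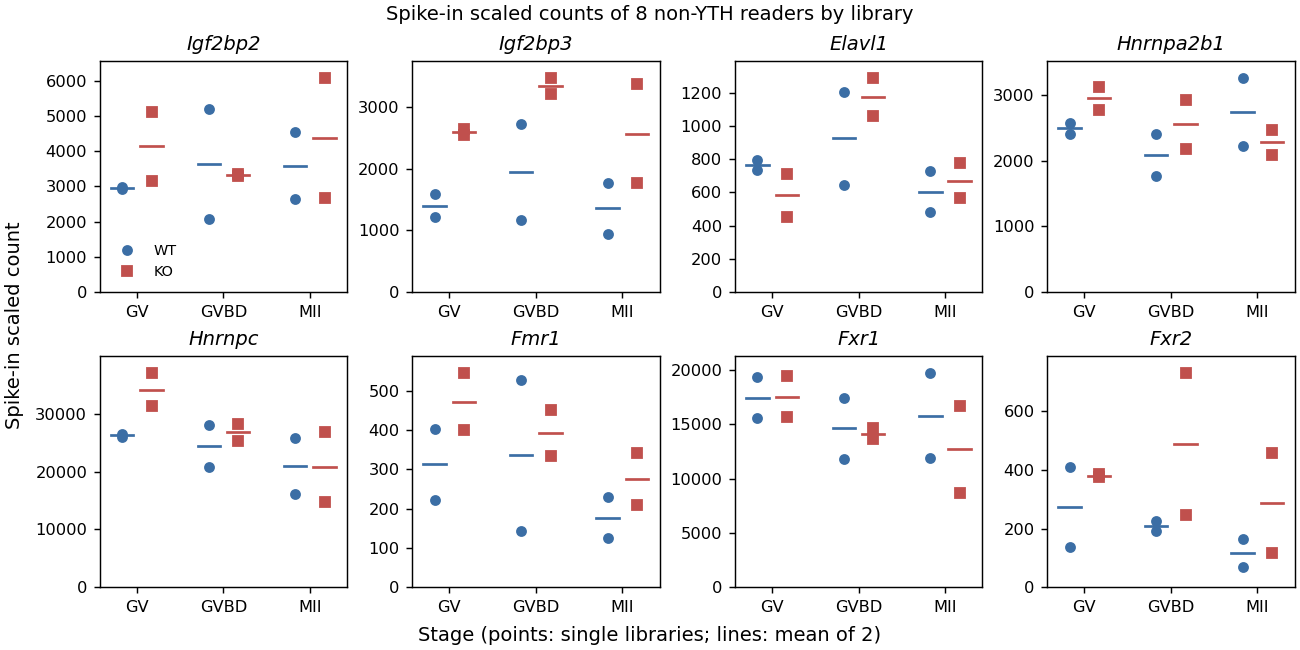
Spike-in scaled counts of 8 transcripts by stage, each axis from 0, with 1 point per library (circles WT, squares KO) and a line at the mean of 2. *Igf2bp3* is higher in both KO libraries than in both WT libraries at GV and GVBD, and replicates lie far apart for *Fmr1* and *Fxr2*.

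To ask whether loss of *Alkbh5* altered the readers, KO was compared with WT at each stage and jointly over the 3 stages in a model with a stage term. A gene was called when its edgeR p-value, adjusted over all genes tested, was under 0.05 and it changed at least 2-fold. Of all genes tested, 0.0977% were called at GV, 2.54% at GVBD, 0.803% at MII and 1.26% over all stages. DESeq2 called 3.48%, 4.63%, 1.97% and 6.16% of all genes tested in the same order. Of the 8 readers tested, 0 were called in each of these comparisons by edgeR, and 0 by DESeq2. With shares of this size among all genes, a count of 0 among 8 does not set the readers apart. At an unadjusted p under 0.05, edgeR singled out *Igf2bp3* at GV, no reader at GVBD or MII, and *Igf2bp3* and *Fxr2* over all stages. DESeq2 added *Hnrnpc* at GV.

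At GV, *Igf2bp3* had a log2 fold change between genotypes of 0.89 ± 0.21 (SE; edgeR, 95% interval 0.37 to 1.41, adjusted p = 0.162, and 0.00389 to 0.999 over 13 alternatives, of which DESeq2 gave the lowest). It was 0.78 ± 0.54 at GVBD and 0.92 ± 0.81 at MII (adjusted p = 0.544 and 1). Single libraries moved these later values, from 0.29 without WT GVBD replicate 2 to 1.52 without WT GVBD replicate 1 at GVBD, and from 0.37 without KO MII replicate 1 to 1.44 without WT MII replicate 1 at MII. Over all stages it was 0.86 ± 0.27 (interval 0.29 to 1.44, unadjusted p = 0.00596, adjusted p = 0.117). All genes tested had a median of 0.36, 0.23, 0.30 and 0.29 in the same comparisons, and 81.8% of them had a lower value than *Igf2bp3* over all stages. The direction was the same under each of the 13 alternative settings at every stage and the 20 over all stages. Among these, the setting without a fold minimum alters only the rule for a call and keeps the fitted value. Over all stages the adjusted p ranged from 0.0269 to 0.279 and was under 0.05 in 5 of 20 settings, with a change under 2-fold in each of those 5. They were TMM scaling (log2 fold change 0.64), median-of-ratios scaling (0.62), DESeq2 (0.86), the replicate block (0.91) and the fit without KO MII replicate 2 (0.96). TMM brought the median of all genes over all stages from 0.29 to 0.02 and turned the split of all called genes from 198 of 278 higher in KO to 251 of 599.

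For *Fxr2* the later stages had log2 fold changes of 1.22 ± 0.62 at GVBD and 1.33 ± 0.97 at MII (edgeR, adjusted p = 0.361 and 1). Each rested on single libraries, with 0.24 without KO GVBD replicate 1 and 1.80 without KO GVBD replicate 2, and with 0.04 without KO MII replicate 1 and 2.11 without WT MII replicate 1. Over all stages it was 1.01 ± 0.43 (adjusted p = 0.228), and leaving out single libraries gave from 0.66 without KO MII replicate 1 up to 1.32 without WT GV replicate 2. *Igf2bp2* had 0.49 ± 0.26 at GV, −0.13 ± 0.54 at GVBD, 0.28 ± 0.77 at MII and 0.22 ± 0.29 over all stages (edgeR, adjusted p = 0.379, 0.945, 1 and 0.731). The interval over all stages, −0.41 to 0.84, holds both 0 and a rise of more than 1.5-fold. The other 5 readers had log2 fold changes between −0.12 (*Fxr1*) and 0.49 (*Fmr1*) over all stages, each with an interval that held 0.

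**Figure D3:**
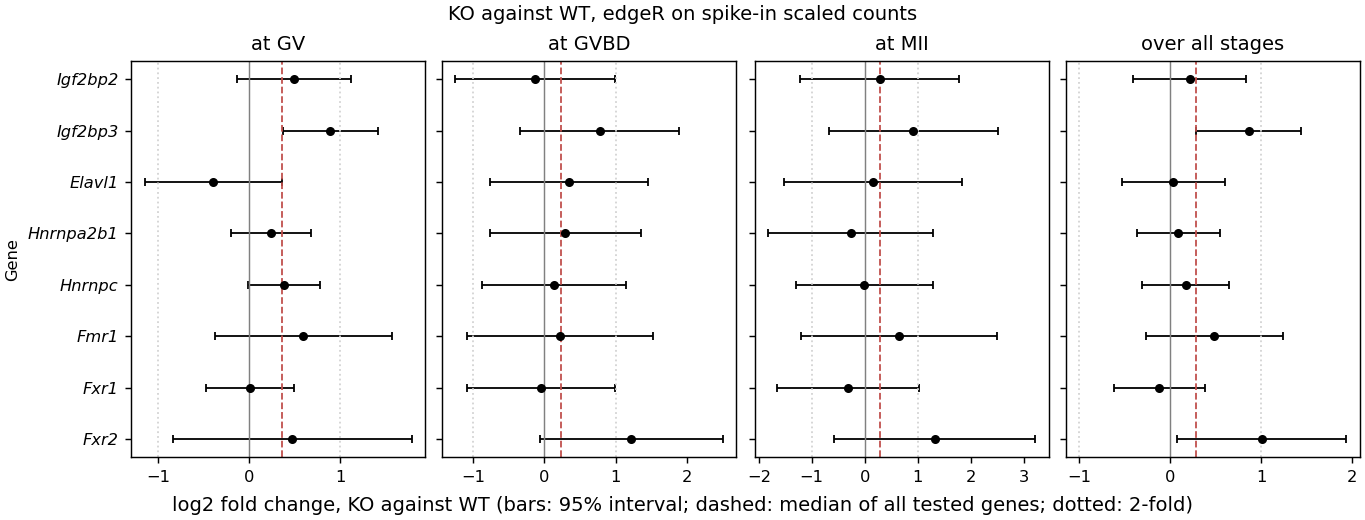
log2 fold change of KO against WT for 8 transcripts at GV, GVBD and MII and over all stages (edgeR, spike-in scaled; bars, 95% interval; dashed line, median of all genes tested; dotted lines, 2-fold). Only the bars of *Igf2bp3* at GV and over all stages and of *Fxr2* over all stages leave out 0.

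A ratio of 2 genes within a library does not depend on how libraries are scaled, so the level of *Igf2bp2* relative to *Igf2bp3* is also given. This ratio was chosen after its values were seen and is given as a description. Genotype labels were also permuted within stages. For a ratio chosen this way the outcome is not independent evidence, so no p-value is given. For WT it was 2.02 and 2.70 in the GV pools, 2.10 and 1.97 in the GVBD pools, and 2.82 and 3.10 in the MII pools. For KO it was 2.22 and 1.31, then 1.05 and 1.15, then 1.98 and 1.67. KO values lay under WT values at GVBD and MII and overlapped with them at GV. The geometric mean over stages in KO was 0.624 of that in WT, and 0.572 to 0.681 on leaving out any 1 library. In KO GVBD the paralogs were nearly level, with *Igf2bp3* at 48.9% and 46.4% of the family, against 32.3% and 33.7% in WT GVBD. *Malsu1*, which shares exon bases with *Igf2bp3*, received 0.81% to 44.4% as many counts as *Igf2bp3* in WT and 1.34% to 30.0% in KO, and its part in the ratio was not tested.

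**Figure D4:**
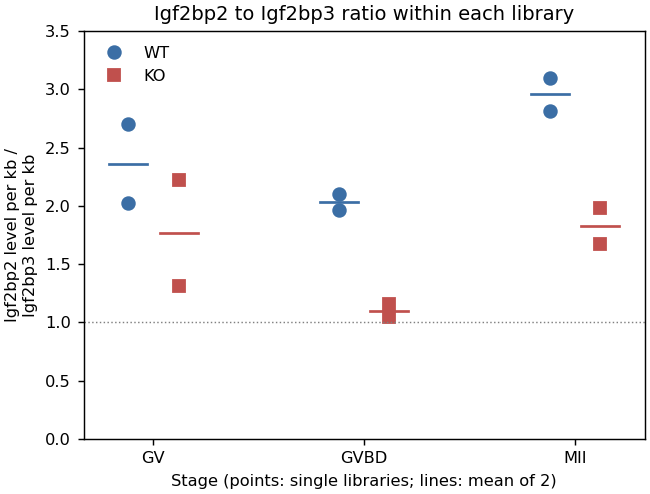
Ratio of the *Igf2bp2* to the *Igf2bp3* level (counts per kb of exon union) within each library, by stage (circles WT, squares KO; lines, mean of 2; dotted line, equal levels at this length). WT libraries lie between 1.97 and 3.10, and KO libraries between 1.05 and 2.22.

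The GV to MII transition, when much maternal RNA is cleared, was then compared within each genotype. In WT, edgeR called 30.9% of all genes tested, 5747 of 5821 of them lower at MII, and DESeq2 called 29.3%. Of the 8 readers, 0 were called by edgeR or by DESeq2. In KO, 3.28% of genes were called and 0 of 8 readers. Blood cell markers also fell over this interval. In WT, edgeR called 7 of 8 lower. In KO, 10 of 10 had negative values, with 1 called by edgeR and 4 by DESeq2. The part of blood RNA in the readers' values was not tested. In KO, DESeq2 called 16.3% of all genes tested and 0 of 8 readers. At an unadjusted p under 0.05, edgeR singled out *Fxr2* in WT and no reader in KO. On the spike-in scale, *Igf2bp2* had a log2 change of 0.29 ± 0.48 in WT and 0.08 ± 0.62 in KO (edgeR, adjusted p = 0.723 and 0.954). *Igf2bp3* had −0.04 ± 0.49 and −0.02 ± 0.60 (adjusted p = 0.966 and 0.992). For both paralogs, more than 80% of all genes tested had a lower value, 90.4% and 80.9% in WT and 89.0% and 86.5% in KO.

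*Elavl1* had log2 changes of −0.34 in WT and 0.21 in KO, *Hnrnpa2b1* 0.13 and −0.37, *Hnrnpc* −0.33 and −0.71, and *Fxr1* −0.14 and −0.47. The lowest values were those of *Fxr2* in WT (−1.26 ± 0.61, edgeR adjusted p = 0.103) and *Fmr1* (−0.83 in WT and −0.78 in KO). A single library weighed on the KO comparison. Without KO MII replicate 1, whose scaled counts were the higher of its pair for all 8 readers, 4 of 8 readers were called lower at MII, namely *Hnrnpc* (−1.21), *Fmr1* (−1.17), *Fxr1* (−1.02) and *Fxr2* (−1.69), beside 11075 of 20437 genes tested (54.2%), so that the readers' share was no greater than that of all genes.

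**Figure D5:**
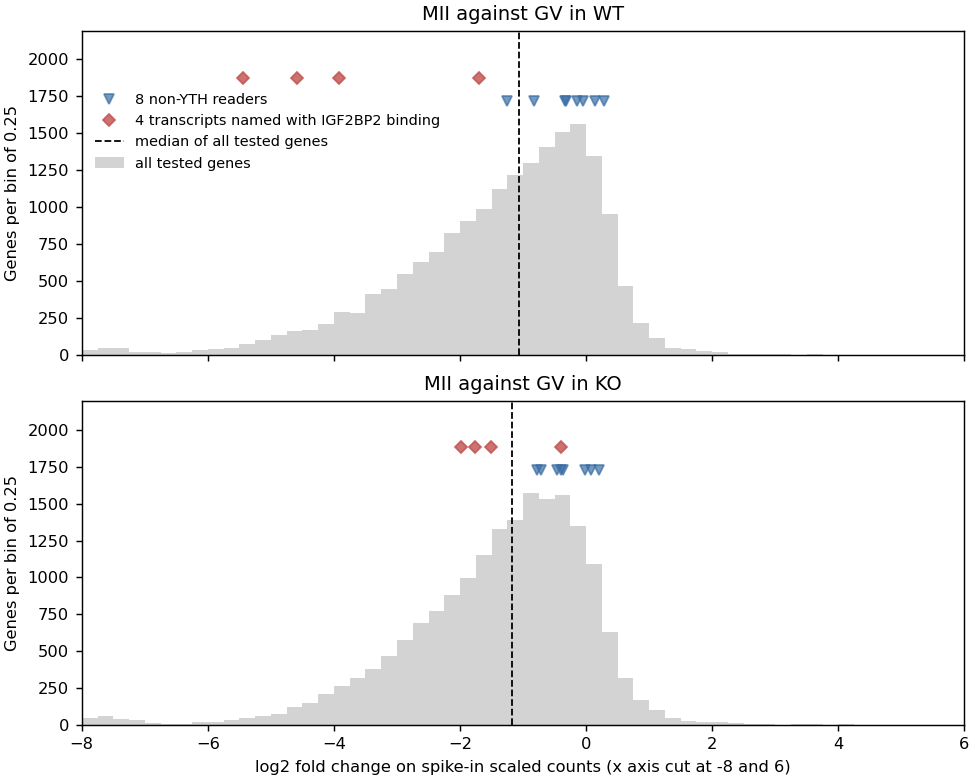
Histogram of log2 fold changes from GV to MII for all genes tested (grey, bins of 0.25) in WT and KO, with the median of all genes (dashed), the 8 readers (triangles) and 4 transcripts the study tested for IGF2BP2 binding (diamonds). In WT the readers lie between −1.26 and 0.29 and the 4 transcripts between −5.44 and −1.70.

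The sign of some of these stage changes depended on the scaling. Under TMM, which sets libraries to a common endogenous level rather than to the spike-in, the median of all genes moved from −1.06 to −0.22 in WT and from −1.17 to −0.14 in KO, and 1329 of 4522 called genes in WT were higher at MII. Values passed from negative to positive for *Igf2bp3*, *Hnrnpc* and *Fxr1* in both genotypes, for *Elavl1* in WT, and for *Hnrnpa2b1*, *Fmr1* and *Fxr2* in KO. *Igf2bp2*, positive on both scales, then had a log2 change of 1.12 in WT and was called, as were 24.0% of all genes (edgeR, adjusted p = 0.004, the lowest over 13 alternatives, of which the highest was 0.975). In KO its value was 1.14 (adjusted p = 0.059). With median-of-ratios scaling, *Igf2bp2* (1.25) and *Hnrnpa2b1* (1.12) were both called in WT, 2 of 8 readers beside 25.6% of all genes. The spike-in scale gives an amount relative to added RNA, and the other scales a share of endogenous RNA.

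Between GV and GVBD, edgeR called 0.0511% of genes in WT and 0.22% in KO, and DESeq2 1.9% and 1.18%. Neither tool called any of the 8 readers in either genotype. The reader with an unadjusted p under 0.05 was *Elavl1* in KO, with 450 and 713 scaled counts in GV pools and 1288 and 1060 in GVBD pools (log2 fold change 1.01 ± 0.36, edgeR, unadjusted p = 0.0212, adjusted p = 0.546). In WT its change was 0.28 ± 0.44. Blood cell markers fell over the same KO interval, with 8 of 10 called by edgeR, and their part in the *Elavl1* values was not tested. *Igf2bp3* had 0.48 ± 0.48 in WT and 0.36 ± 0.26 in KO.

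Whether the GV to MII change differed between genotypes was tested with an interaction term. By edgeR, 0% of the 20807 genes were called (1197 had an unadjusted p under 0.05, and DESeq2 called 150), and 0 of the 8 readers reached an unadjusted p under 0.05 or were called by DESeq2. For *Igf2bp2* the difference of log2 changes, KO minus WT, was −0.21 ± 0.73 with an interval of −1.81 to 1.39, and for *Igf2bp3* it was 0.03 ± 0.72 with an interval of −1.54 to 1.59. Differences of 2-fold in either direction lie within both intervals.

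The rest of the m6A pathway was described by the same fits. Between KO and WT, 0 of 9 writers, 0 of 5 YTH readers, 0 of 8 further proposed readers and cofactors and 0 of the 12 or 13 relatives and partners of the members that could be tested were called by edgeR in any of the 4 comparisons, and *Alkbh5* was the called gene among the 2 erasers. Over all stages, an unadjusted p under 0.05 was reached by 2 writers, 1 YTH reader, 1 cofactor and 3 relatives, and DESeq2 called 1 writer and 1 YTH reader. At single stages DESeq2 called 1 YTH reader and 1 of the relatives and partners at GV, and 1 further reader or cofactor at GVBD. From GV to MII in WT, edgeR called 30.9% of all genes tested. Beside this share, 0 of 9 writers (median log2 change −0.42) and 0 of 5 YTH readers (−0.26) were called. Of each of these 2 lists, 1 gene had an unadjusted p under 0.05 by edgeR and 0 were called by DESeq2. Among the further readers and cofactors, 3 of 8 were called lower, the translation initiation subunits *Eif3h* (−3.66) and *Eif3b* (−2.18) and the mitochondrial RNA-binding protein gene *Lrpprc* (−1.88). Of the relatives and partners 2 of 12 were called lower, *Hnrnpd* (−1.39), which encodes the AU-rich element binding protein AUF1, and *Nufip1* (−2.01), which encodes a nuclear partner of FMRP. In KO, where 3.28% of all genes tested were called, edgeR called *Eif3h* (−3.58, adjusted p = 0.0414) and no other gene of these lists. DESeq2 called 2 of the relatives and partners. The KO values of the genes called in WT alone were −2.25 for *Eif3b*, −1.60 for *Lrpprc*, −2.01 for *Hnrnpd* and −2.88 for *Nufip1*. In the interaction fit on the GV to MII change, 0 genes of these lists were called by edgeR or DESeq2.

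The study tested 4 transcripts for IGF2BP2 binding, and chose them on these samples, so their direction is not independent evidence. From GV to MII in WT, 4 of 4 were called lower, with log2 changes of −5.44 for *Atp5j2* (an ATP synthase subunit), −4.59 for *Rpl39* (a ribosomal protein), −3.92 for *Esrrb* (an orphan nuclear receptor) and −1.70 for *Birc5* (survivin, of the chromosomal passenger complex). In KO 0 of 4 were called by edgeR (3 at an unadjusted p under 0.05, and 1 by DESeq2), with values of −1.98, −1.52, −1.76 and −0.39 in the same order. At MII, *Atp5j2* (3.61 ± 0.74) and *Rpl39* (3.14 ± 0.78) were called higher in KO than in WT (edgeR, adjusted p = 0.000485 and 0.0125). In the interaction fit 0 of 4 were called by edgeR (4 at an unadjusted p under 0.05, and 2 by DESeq2), with a median difference of 2.61. *Igf2bp2* had a KO against WT log2 fold change of 0.28 ± 0.77 at that stage.

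Across the 12 libraries, the scaled counts of *Igf2bp2* and *Igf2bp3* had a Pearson correlation of 0.644 on the log2 scale. Of 10827 named genes averaging 50 counts or more, the 3 closest to *Igf2bp2* were *Ccdc14* (0.960), *Ergic2* (0.955) and *Copb1* (0.943), and those closest to *Igf2bp3* were *Ammecr1l* (0.978), *Ubn2* (0.968) and *Bmpr1b* (0.967). *Igf2bp3* ranked 1234th for *Igf2bp2*. The points share the spike-in scaling of their libraries. With TMM scaling the same 6 correlations were 0.895 to 0.972, and that of the paralogs was 0.614.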

How the data were processed

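RNA of mouse oocytes was measured in 12 libraries. The deposited table holds raw counts, as whole reads for each gene and spike-in sequence. According to the authors' methods and the submitters' processing notes, ERCC RNA was added to lysed pools, cDNA was made by a SMART-seq protocol primed on poly(A), and reads were trimmed with cutadapt 1.9, aligned with HISAT2 2.0.4 to mm10 (GRCm38) and passed to StringTie 1.3.4d. DESeq2 and edgeR are also named. Only uniquely mapped reads were kept, which lowers genes with near-identical copies. Priming on poly(A) means that tail length can alter capture. The extraction protocol of the labels describes a bulk preparation instead.

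Symbols matched 52073 of 56691 identifiers (91.9%). Positions are from GENCODE M21. Libraries were grouped by labelled genotype and stage. The 9 comparisons were fitted with edgeR 4.0.16 (quasi-likelihood, R 4.3.3), with library sizes proportional to summed ERCC counts, genes kept by filterByExpr, two-sided tests and Benjamini-Hochberg adjustment over all tested genes. An SE is the size of a log2 fold change divided by the root of its F statistic. Fits were also run on counts simulated with a fixed spread and large changes in well counted genes. That run does not test smaller changes or noisier pools, and nothing here rests on it. Refits changed the scaling (TMM, median of ratios, or ERCC restricted to sequences with 10 counts or more), the filter, the tool (DESeq2 1.42.0), the libraries entered (all 12 jointly, or 1 omitted), or added a replicate block. A further setting dropped the fold minimum from the rule for a call, without a new fit. Crossed replicate numbers and the *Igf2bp2* to *Igf2bp3* ratio with its refits were added after the data were seen. Correlations used a pseudocount of 0.5. Coding sequences were aligned with MAFFT 7.526 and searched with BLAST+ 2.17.0. The named genes are the 9 members in every comparison, up to 3 called genes of each list (4 for the IGF2BP2-bound transcripts, named after their values were seen), and the 3 genes most correlated with *Igf2bp2* and *Igf2bp3*. The members and lists were chosen with earlier results of these data known.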

Additional observations from a re-analysis of the deposited data

How the results depend on the processing

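The count of readers called was 0 in each of the 9 comparisons and stayed at 0 under every alternative except in the GV to MII comparisons. In WT it was 1 with TMM and 2 with median-of-ratios scaling, which set aside the spike-in. In KO, leaving out single libraries gave 0 to 4 readers, the highest without KO MII replicate 1, and the cause was not tested. Of 1024 values for the 8 readers under alternative settings, 105 changed sign, 63 of them on leaving out a library, 19 with TMM, 20 with median-of-ratios scaling and 3 with the replicate block, and none of these was called in the fit as reported. The 1024 include 72 values of the setting without a fold minimum, which keeps the fitted values and so could not change sign.

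Counts over all genes were less stable than those of the readers. For KO against WT at GV, 19 genes were called, against 0 with the replicate block and 676 by DESeq2, and 0 to 514 on leaving out a library. At GVBD 494 were called, against 13 with all 12 libraries in one model and 953 without a filter (5 to 813 on leaving out a library), and at MII 141, against 0 with crossed numbers and 363 with all libraries in one model (11 to 542). Over all stages 278 were called, and up to 1356 by DESeq2 (63 to 918). From GV to MII the WT count was 4201 to 5821 (2853 to 5347) and the KO count 616 to 3214 (39 to 11075). From GV to GVBD the counts were 3 to 528 in WT (0 to 629) and 1 to 516 in KO (7 to 888), and the interaction had 0 to 346 (0 to 285).

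With TMM, the called genes higher and lower in KO were 8 and 11 at GV (11 and 8 as reported), 4 and 28 at GVBD (157 and 337) and 23 and 20 at MII (88 and 53).

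Libraries that share a replicate number were not treated as pairs. Deviations from the group mean correlated between genotypes with r = −0.223 (GV), 0.141 (GVBD) and −0.187 (MII), and over all 15 pairs of groups with −0.223 to 0.243. The replicate block called 0 readers in all 9 comparisons. Over all stages it raised the number of genes called from 278 to 673. With crossed numbers, chosen after seeing the data, 218 genes were called at GV and 0 at MII, with 0 readers in both. With 2 libraries a group, the wide intervals limit what can be said: at MII the interval of *Igf2bp2* between genotypes ran from −1.22 to 1.79.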
